A study of Mus musculus with 8 samples.

Results

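The genes described here help make nitric oxide, compete with its synthesis for arginine or rebuild arginine, in neutrophils of mice with B16 tumors. They are Nos2, Gch1, Arg1, Arg2 and Ass1, 5 of the 18187 gene symbols in the deposited table, and they were chosen by symbol. All 5 passed the filter on low counts and were tested. B16 is a mouse melanoma line. There were 3 libraries with the treatment label aOX40 (replicates 1 to 3) and 5 with the label IgG (replicates 2 to 6), and every library carries the cell type label neutrophils and the cell line label B16. OX40 is a receptor of activated T cells through which they receive stimulating signals, and IgG, immunoglobulin G, served as the comparison. The series title concerns neutrophil activation by immunotherapies that act on T cells. The strain, age, dose, timing and way of isolating the cells are not given in the labels, nor is whether libraries came from separate animals. The p-values therefore rest on library-to-library spread, which may be technical.

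Inducible nitric oxide synthase, the product of Nos2, turns arginine into nitric oxide and citrulline and needs the cofactor tetrahydrobiopterin. Gch1 encodes GTP cyclohydrolase, the entry enzyme of the pathway that makes this cofactor. Arginases split the same arginine into ornithine and urea: Arg1 encodes the cytosolic enzyme and Arg2 the mitochondrial one. Ass1, with Asl, rebuilds arginine from citrulline. In myeloid cells of tumors, nitric oxide is known as a toxic effector and arginase activity as a way to deprive T cells of arginine.

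The libraries held 69.6 to 73.5 M counts in aOX40 and 52.7 to 63.2 M counts in IgG (M, mega), without overlap (exact two-sided permutation p = 0.0357, the smallest possible here), so depth and treatment cannot be told apart. Mitochondrial messenger RNAs took 0.0998 to 0.152% of counts in aOX40 and 0.0510 to 0.0811% in IgG, also without overlap (exact permutation p = 0.0357). The 12 neutrophil markers summed to 17049 to 24805 CPM (counts per mega-count of the library, with TMM factors between libraries) in aOX40 and 16258 to 28116 CPM in IgG (exact permutation p = 1), a sum made up mostly of S100a8 and S100a9. Of the 12, 3 genes of granule or surface proteins rose in edgeR: Mmp8 (log2 fold change 1.19, adjusted p = 0.0443), Mmp9 (1.28, adjusted p = 0.0467) and Cd177 (1.34, adjusted p = 0.0414). Of all genes tested, 5.65% were called in either direction. Camp had a log2 fold change of -1.14 (adjusted p = 0.202, edgeR). The granule genes Ltf and Ngp had log2 fold changes of 0.62 and -0.27 (adjusted p = 0.406 and 0.722, edgeR). The part of these differences in the levels of the 5 genes was not tested. The highest marker sum of other cells in any library was 23.9 CPM for eosinophils, basophils and mast cells, 27.5 CPM for endothelial cells, 32.4 CPM for fibroblasts, 15.4 CPM for melanoma cells, 6.11 CPM for dendritic cells and 4.56 CPM for lymphocytes. In that order, 4 of 9, 2 of 7, 4 of 7, 7 of 7, 4 of 7 and 6 of 10 listed markers had a row. The fibroblast marker Col1a1 fell, with 1.22 to 2.21 CPM in aOX40 and 3.42 to 32.4 CPM in IgG (log2 fold change -3.09, adjusted p = 0.0414, edgeR). It was the only fibroblast marker tested. Col3a1, Dcn and Lum were too low for the test and overlapped between groups, with Col3a1 at 0 to 1.47 CPM in aOX40 and 0 to 2.23 CPM in IgG. Macrophage and monocyte markers are given beside Nos2. In bulk RNA, fewer cells of a type and less RNA per cell cannot be told apart.

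Of the 5 genes, 0 passed the threshold of an adjusted p of 0.05 in edgeR's quasi-likelihood test over 13278 genes, where 5.65% of all genes did. At an unadjusted p below 0.05 there was 1, Gch1, against 24.76% of all genes. DESeq2 called 1 of the 5 (Gch1) and gave Ass1 no adjusted p. Its share was 16.14% of the 8881 genes to which it gave an adjusted p. Limma voom called 0, against 5.45% of all genes, and limma voom with quality weights 1 (Gch1), against 9.83%. A count of 1 among 5 is close to these shares. Over all genes, 351 were called higher and 399 lower in aOX40. When libraries were scaled by total counts alone these numbers were 874 and 246, the median over all genes of the log2 fold change shifted by 0.30, and 0 of the 5 genes were called. The total of 750 calls depended on single libraries: it was 0 without aOX40 replicate 2 and 59 without aOX40 replicate 3, and 497 and 475 without IgG replicates 3 and 6.

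Nos2, the nitric oxide synthase gene on chromosome 11 (GRCm38, chr11:78920787-78960254, plus strand), stood at 109, 156 and 227 CPM in aOX40 replicates 1, 2 and 3. In IgG replicates 2 to 6 it stood at 147, 50.8, 30.7, 120.5 and 87.2 CPM. The groups overlapped: IgG replicates 2 and 5 lay above aOX40 replicate 1, while the highest values belonged to aOX40 replicates 2 and 3. For Nos2 the log2 fold change was 0.91 (SE 0.43, 95% interval -0.05 to 1.87, adjusted p = 0.223, edgeR). Libraries were spread widely within both groups, with replicates 3 and 1 at the ends in aOX40 and replicates 2 and 4 at the ends in IgG. Without aOX40 replicate 3 the log2 fold change was 0.61 (adjusted p = 0.529, edgeR), and without IgG replicate 2 it was 1.18 (adjusted p = 0.131, edgeR).

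**Figure D1:**
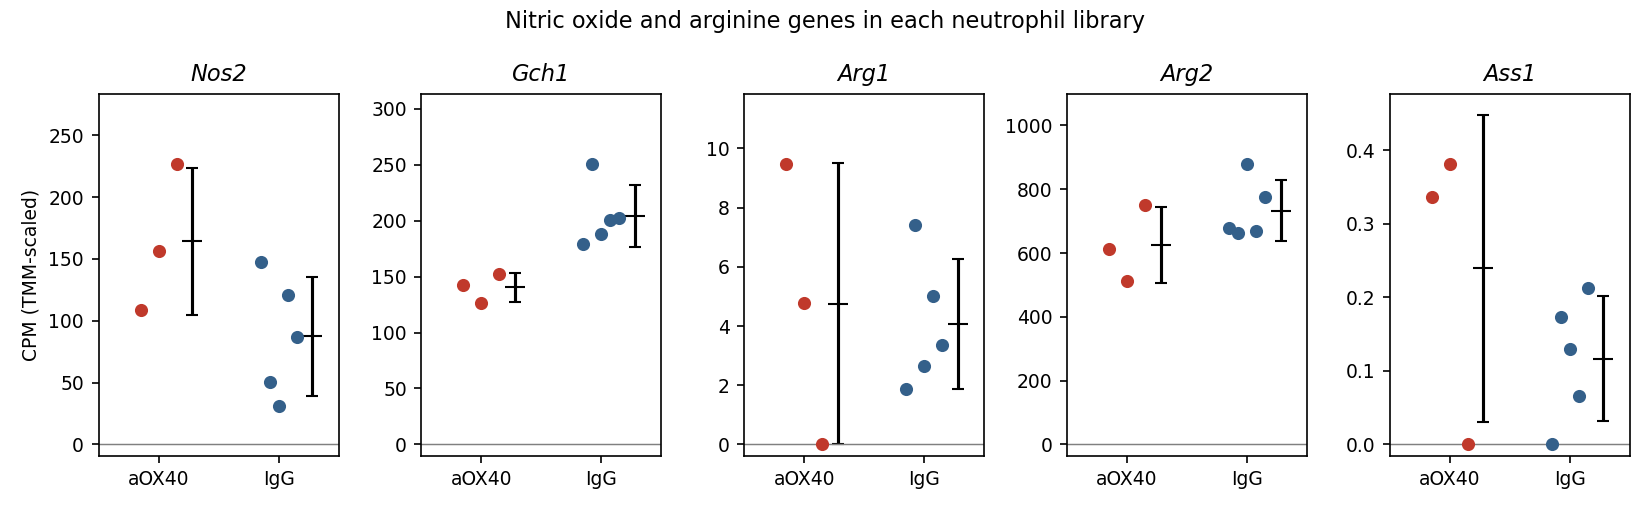
CPM of the 5 genes in each library, with aOX40 on the left and IgG on the right of each panel; points are libraries, the black mark and bar are the mean and SD (n = 3 and n = 5), and each panel has its own axis. Gch1 is the only panel in which the groups do not overlap, Arg1 and Ass1 are at 0 in aOX40 replicate 3, and Ass1 is also at 0 in IgG replicate 2.

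Macrophages and monocytes can also express Nos2 and Arg1, and some of their markers differed between the groups. Of the 12 listed, 11 had a row in the table, and their sum was 1083 to 1527 CPM in aOX40 and 1403 to 2037 CPM in IgG (exact permutation p = 0.0714). Most of that sum was Cd68 and Ly6c2. Of the complement genes that define tissue macrophages, C1qa, C1qb and C1qc stayed below 2 CPM in every library, and Mertk was at 0 in 7 of 8 libraries, all but aOX40 replicate 2. Adgre1, the F4/80 gene, was at 14.5, 26.8 and 23.6 CPM in aOX40 and at 2.13 to 8.55 CPM in IgG (log2 fold change 1.81, adjusted p = 0.0248, edgeR). Csf1r was at 39.9, 38.0 and 75.6 CPM in aOX40 and at 4.51 to 25.1 CPM in IgG (log2 fold change 1.54, adjusted p = 0.0546, edgeR). Cd68 fell (log2 fold change -0.99, adjusted p = 0.0362, edgeR). The library with the most Nos2, aOX40 replicate 3, had the most Csf1r and the lowest sum of these markers (1083 CPM). The IgG library with the most Nos2, replicate 2, had the least Csf1r and Adgre1 of all 8. That IgG library also had the most Cd68 (1466 CPM) and the highest sum (2037 CPM). The part of these cells in the Nos2 and Arg1 levels was not tested.

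Gch1, on chromosome 14 (GRCm38, chr14:47153895-47189413, minus strand), had 142, 126 and 152 CPM in aOX40. In IgG it had 179, 251, 188, 201 and 202 CPM. Every aOX40 library lay below every IgG library, which made Gch1 the 1 gene of the 5 whose groups did not overlap, against 15.97% of all genes tested. The log2 fold change was -0.54 (SE 0.19, 95% interval -0.96 to -0.13), with an unadjusted p of 0.0150 and an adjusted p of 0.110 (edgeR), so Gch1 did not pass. DESeq2 gave -0.56 with an adjusted p of 0.00809, and limma voom with quality weights gave -0.61 with an adjusted p of 0.0366. Scaling mattered for this gene: by total counts alone it stood at 152 to 166 CPM in aOX40 and at 161 to 247 CPM in IgG, with overlap, and the log2 fold change was -0.25 (adjusted p = 0.431, edgeR). Measured against the median of all genes, it was -0.59 with the main scaling and -0.60 with total counts alone.

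The 250 bases before the Gch1 start are shown because Gch1 is the gene of the 5 whose groups were apart. They lie at chr14:47189414-47189663 on the minus strand (RefSeq, GRCm38.p6), printed 5′ to 3′, with capitals for matches to the CCAAT box, to the GC box (letters GGGCGG) and to the core of a cyclic AMP response element (letters TGACG), each searched on both strands.
Gch1 upstream: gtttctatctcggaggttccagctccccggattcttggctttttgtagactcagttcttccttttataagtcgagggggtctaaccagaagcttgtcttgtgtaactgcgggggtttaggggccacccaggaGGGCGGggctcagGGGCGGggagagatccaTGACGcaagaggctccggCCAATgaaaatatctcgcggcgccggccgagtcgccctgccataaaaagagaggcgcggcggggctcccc
The single CCAAT match starts 70 bases before the gene start, the TGACG match 88 bases and the GGGCGG matches 118 and 105 bases before it. Matches to these motifs are common: among 32851 promoter windows of the same length, 33.8% hold CCAAT, 32.7% hold GGGCGG and 17.8% hold TGACG. For the interferon-gamma element (GAS), the interferon-stimulated response element and the NF-kB motif, only a restricted pattern of each was searched, on both strands. These patterns had 0 matches in this window, while 7.02%, 2.98% and 0.356% of windows hold them. Looser forms, of the NF-kB motif above all, were not searched, and the window may hold them, so absence of these elements is not shown. Of the 5 genes, Gch1 and Ass1 had a promoter entry; Nos2, Arg1 and Arg2 are named only.

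The synthase gene was also set against the cofactor and arginase genes within each library. The count ratio of Nos2 to Gch1, which does not depend on how a library is scaled, was 0.767, 1.24 and 1.49 in aOX40 replicates 1, 2 and 3. In IgG replicates 2 to 6 it was 0.825, 0.203, 0.163, 0.600 and 0.431. Only IgG replicate 2 exceeded the lowest aOX40 library. This ratio was chosen after its values were seen. The ratio of Nos2 to Arg2 was 0.178, 0.305 and 0.303 in aOX40 and 0.217, 0.0766, 0.0349, 0.180 and 0.112 in IgG. Here IgG replicates 2 and 5 lay above aOX40 replicate 1. On the log2 scale this ratio averaged -1.98 ± 0.44 in aOX40 (SD, n = 3) and -3.28 ± 1.06 in IgG (SD, n = 5).

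**Figure D2:**
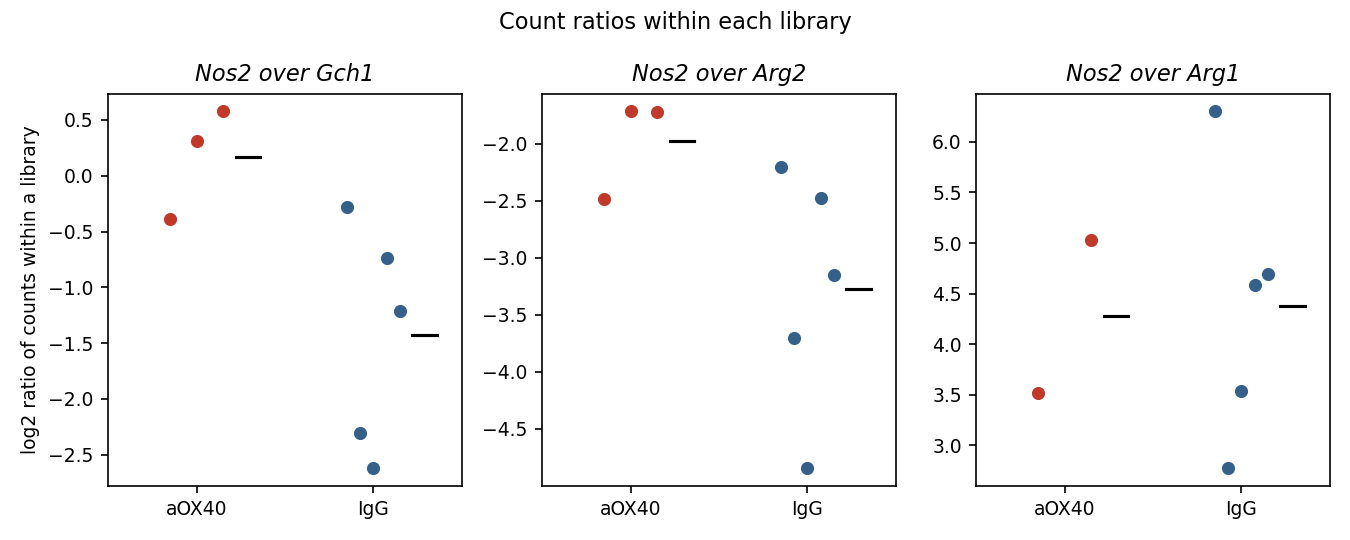
Log2 count ratios of Nos2 to Gch1, Arg2 and Arg1 within each library, with aOX40 on the left and IgG on the right of each panel; points are libraries and black lines are means. For Nos2 over Gch1, aOX40 runs from -0.38 to 0.58 and IgG from -2.62 to -0.28, and aOX40 replicate 3 is missing from the last panel because Arg1 had 0 counts there.

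Arg2, the mitochondrial arginase gene, lies on chromosome 12 (GRCm38, chr12:79130777-79156301, plus strand) and had 611, 514 and 751 CPM in aOX40 and 678, 664, 880.0, 668 and 776 CPM in IgG. The groups overlapped through aOX40 replicate 3, which lay above 3 of the IgG libraries. The log2 fold change was -0.23 (SE 0.19, 95% interval -0.66 to 0.20, adjusted p = 0.498, edgeR), and its sign depended on the scaling, with 0.07 by total counts alone (adjusted p = 0.825, edgeR). Arg2 ranked 228 of 13278 genes tested by mean CPM. Its exons share 285 bases with the span of Vti1b, a vesicle fusion gene on the other strand, which had 43.7 to 51.3 CPM in aOX40 and 42.7 to 63.8 CPM in IgG. Its exons also share 116 bases with the antisense gene Gm48780, which had 4.13, 1.65 and 4.47 CPM in aOX40 and 6.14 to 14.1 CPM in IgG (adjusted p = 0.0855, edgeR). The sources used here do not say whether strand was used in counting; without it, reads of overlapping genes cannot be told apart.

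Arg1, on chromosome 10 (GRCm38, chr10:24915221-24927484, minus strand), was low and uneven. It had 9.48, 4.79 and 0 CPM in aOX40 (705, 427 and 0 counts) and 1.87, 7.41, 2.64, 5.02 and 3.36 CPM in IgG (91, 384, 142, 308 and 190 counts). The highest and the lowest library were both aOX40 libraries. In aOX40 replicate 3, 3 counts would equal 0.0374 CPM, so a value like those of the other libraries would have been well above the counting limit. The log2 fold change was 0.20 (SE 0.76, 95% interval -1.48 to 1.88, adjusted p = 0.901, edgeR). Its direction rested on single libraries: it was 0.79 without aOX40 replicate 3, -0.71 without aOX40 replicate 1 and -2.47 in limma voom (adjusted p = 0.429, 0.652 and 0.446). The table lists 0 for other genes that most cells use, such as the spermidine synthase gene Srm in all 5 IgG libraries, so a 0 is reported as listed.

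Per kb of exon, Arg2 exceeded Arg1 in each of the 7 libraries with Arg1 counts. The ratio was 101 and 167 in aOX40 replicates 1 and 2. In IgG it was 566, 140, 520, 208 and 360.0, so both aOX40 ratios that exist are among the 3 lowest of the 7. The longest run of bases shared between the Arg1 and Arg2 coding sequences (GENCODE M21 transcripts) is 12 bases, and a megablast search of their transcripts found 0 matches between them.

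**Figure D3:**
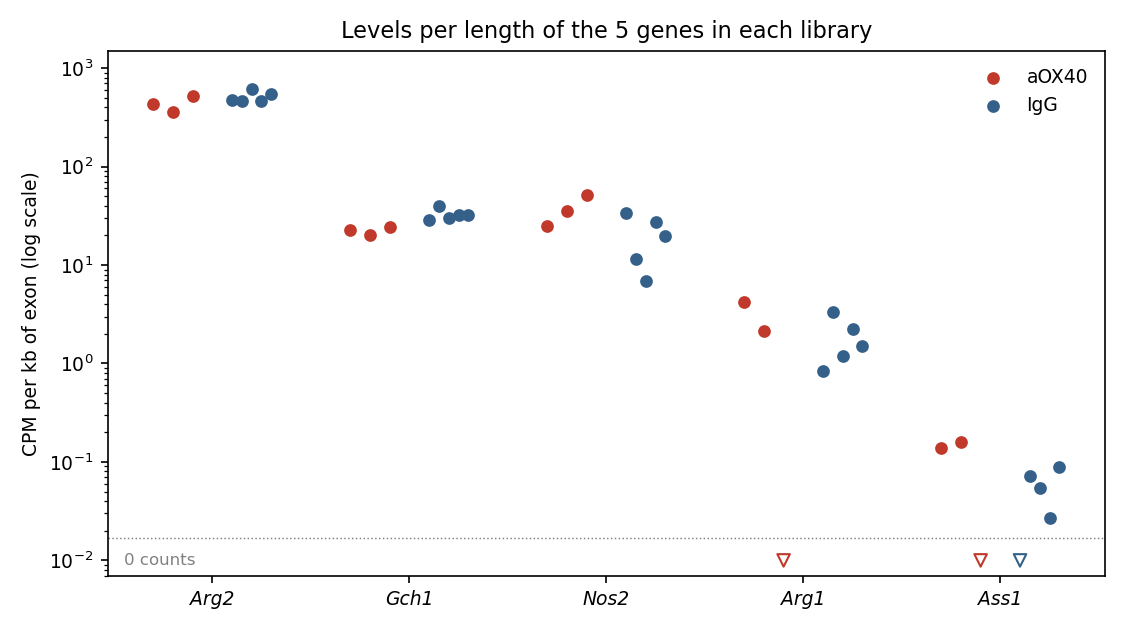
Level per length (CPM per kb of exon, log axis) of the 5 genes in each library, with aOX40 left of IgG for each gene; open triangles below the dotted line are libraries with 0 counts, which have no place on the log axis. Arg2 lies above the other 4 genes in all 8 libraries, from 360 to 616 CPM per kb.

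By level per length the order was Arg2, Gch1 and Nos2, Arg1, Ass1. Arg2 averaged 438 ± 83.4 CPM per kb in the 3 aOX40 libraries and 513 ± 66.0 CPM per kb in the 5 IgG libraries (SD). Gch1 averaged 22.4 ± 2.08 CPM per kb in aOX40 and 32.7 ± 4.45 in IgG, and Nos2 37.2 ± 13.5 in aOX40 and 19.8 ± 10.9 in IgG. Pooled over the 8 libraries, Gch1 and Nos2 averaged 28.8 ± 6.37 and 26.3 ± 14.2 CPM per kb (SD, n = 8), not apart beyond that spread. Within libraries, and with all exons as the length, their order differed by group. In aOX40, Nos2 lay above Gch1 each time, at 24.7, 35.5 and 51.5 against 22.7, 20.2 and 24.4 CPM per kb. In IgG it did so only in replicate 2, at 33.4 against 28.6 CPM per kb. With the length of the longest transcript in place of all exons Gch1 averaged 51.4 CPM per kb and Nos2 27.7. The order within libraries then changes, because that transcript has 3508 bases for Gch1 and 4192 bases for Nos2. In aOX40 replicate 1 and IgG replicate 2 Gch1 had the higher CPM, so by this length it lay above Nos2 there. The order also restates the ratio of Nos2 to Gch1, which was chosen after its values were seen. Arg1 stayed between 0 and 4.26 CPM per kb.

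Ass1, on chromosome 2 (GRCm38, chr2:31470207-31520672, plus strand), was close to the limit of detection. It had 25, 34 and 0 counts in aOX40 (0.336, 0.381 and 0 CPM) and 0, 9, 7, 4 and 12 counts in IgG (0, 0.174, 0.130, 0.0652 and 0.213 CPM). The library at 0 in aOX40 was replicate 3, the same one in which Arg1 had 0 counts. For Ass1 the log2 fold change was 1.03 (SE 1.05, 95% interval -1.19 to 3.25, adjusted p = 0.582, edgeR). The Ass1 transcript has a near copy, Gm5424, with 99.5% identity over 73.1% of its length, which had 60, 41 and 0 counts in aOX40 and 0, 11, 3, 3 and 0 in IgG. Reads may be split between them, so both levels are uncertain.

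Of 53 names listed of other genes of arginine and nitric oxide metabolism, 40 had a row in the table and 33 were tested. Of these, 1 rose (Slc7a7) and 0 fell in edgeR, which is 3.03% of the tested pathway genes against 5.65% of all genes. An unadjusted p below 0.05 was found for 9, or 27.3%, against 24.76% of all genes. DESeq2 called 2 (16.14% of all genes with an adjusted p), limma voom 2 (5.45% of all genes) and limma voom with quality weights 5 (9.83% of all genes). The median log2 fold change was 0.22 against 0.05 over all genes tested. No overlap between groups was seen for 8 of the 33, or 24.2%, against 15.97% of all genes. The shares without overlap and with an unadjusted p below 0.05 both include Slc7a7 and Gchfr. Slc7a7 and Gchfr passed the filter on low counts only with the aOX40 libraries, so their separation was favoured in advance. No excess over all genes is read from these shares. Nos1 had no row, and the endothelial synthase gene Nos3 was at 0 to 0.0337 CPM in aOX40, and in IgG at 0 except 0.939 CPM in replicate 6.

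Among arginine transport genes, Slc7a7, a light chain of a cationic amino acid exporter, had 246, 158 and 53 counts in aOX40 and 6, 1, 0, 3 and 0 in IgG, or 3.31, 1.77 and 0.661 CPM against at most 0.123 CPM. The IgG libraries held 10 counts in all, so the gene passed the filter on low counts only through aOX40, where it had to be higher. Its adjusted p of 0.0467 (edgeR) is given as a description for that reason, and it was called in 0 of the 8 analyses that left out a library. Slc3a2, the abundant heavy chain shared by several such transporters, had 615, 473 and 584 CPM in aOX40 and 768 to 1184 CPM in IgG. Each aOX40 library lay below each IgG library. The log2 fold change was -0.78 (SE 0.20, adjusted p = 0.0509, edgeR), just outside the threshold, and it was called in 5 of 20 alternative analyses. The importer gene Slc7a1 (log2 fold change -1.33, adjusted p = 0.235, edgeR), Slc7a6 (0.42, adjusted p = 0.800) and the lysosomal arginine sensor gene Slc38a9 (-0.32, adjusted p = 0.696) stood below 8 CPM in every library.

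Around the cofactor, 0 of 6 genes passed in edgeR (5.65% of all genes), and DESeq2 called 0 (16.14% of all genes with an adjusted p). Limma voom with quality weights called 1, Spr, against 9.83% of all genes, but Spr was at 0 in 4 of the 5 IgG libraries. In edgeR an unadjusted p below 0.05 was found for 2, 1 of them Gchfr, against 24.76% of all genes. Pts, which acts after Gch1 in the synthesis, had 154, 97.7 and 94.1 CPM in aOX40 and 54.4 to 149 CPM in IgG (log2 fold change 0.11, adjusted p = 0.867, edgeR). Spr, which encodes the last enzyme, was below 2 CPM throughout, and so was Gchfr, the feedback regulator of GTP cyclohydrolase. Gchfr, named after its values were seen, had 1.09, 0.640 and 0.549 CPM in aOX40 and 0 to 0.424 CPM in IgG (adjusted p = 0.153, edgeR). Gchfr was at 0 in 3 of the 5 IgG libraries and passed the filter on low counts only with the aOX40 libraries. Its p is therefore given as a description. Qdpr, which recycles the cofactor, was at 0 in 4 of the 8 libraries (adjusted p = 0.968, edgeR).

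Citrulline recycling was represented by Asl, the lyase that acts after Ass1. It had 8.69, 15.3 and 9.29 CPM in aOX40 and 2.34 to 7.05 CPM in IgG, without overlap (log2 fold change 1.20, SE 0.38, adjusted p = 0.0869, edgeR), and it did not pass. Asl was called in 2 of 20 alternative analyses: limma voom with quality weights and scaling by total counts alone. Among the 6 tested partners of the synthases, 0 passed in edgeR (5.65% of all genes) and 1 had an unadjusted p below 0.05 (24.76%). DESeq2 called 0 of them, against 16.14% of all genes with an adjusted p. Calm2 and Calm3, which encode a calcium-binding subunit of the synthase, had log2 fold changes of -0.11 and 0.38 (adjusted p = 0.719 and 0.377, edgeR). Nosip, an interaction partner of nitric oxide synthases, had a log2 fold change of 0.33 (adjusted p = 0.423, edgeR). Adh5, which breaks down S-nitrosoglutathione, a store of nitric oxide, had 12.1, 16.3 and 18.1 CPM in aOX40 and 6.29 to 10.2 CPM in IgG, without overlap (log2 fold change 0.99, SE 0.28, adjusted p = 0.0602, edgeR). It was called in 3 of 20 alternative analyses: DESeq2 (adjusted p = 0.0105), limma voom with quality weights and scaling by total counts alone.

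Downstream of arginase, 0 of 10 tested genes of ornithine, polyamine and proline use passed in edgeR, against 5.65% of all genes. An unadjusted p below 0.05 was found for 1, against 24.76% of all genes. DESeq2 called 0 (16.14% of all genes with an adjusted p), and so did limma voom (5.45% of all genes). The most abundant were genes of polyamine breakdown. Sat1, the spermidine acetyltransferase gene, had 1851, 1445 and 1463 CPM in aOX40 and 1345 to 1971 CPM in IgG (log2 fold change -0.05, adjusted p = 0.892, edgeR). Smox, the spermine oxidase gene, had 882, 1016 and 1730 CPM in aOX40 and 1331 to 2017 CPM in IgG (log2 fold change -0.52, adjusted p = 0.231, edgeR). The antizyme gene Oaz1 and the antizyme inhibitor gene Azin1 had log2 fold changes of -0.08 and -0.47 (adjusted p = 0.828 and 0.282, edgeR). Odc1, which turns ornithine into putrescine, and Amd1, which feeds the next step, were named after their values were seen. Odc1 had a log2 fold change of -0.41 (adjusted p = 0.309, edgeR), and Amd1 had 8.37, 13.3 and 7.66 CPM in aOX40 against 1.15 to 6.46 CPM in IgG (adjusted p = 0.107, edgeR). Among methylarginine genes Prmt1, the main arginine methyltransferase gene, had 3.39, 2.64 and 2.35 CPM in aOX40 and 0 to 1.12 CPM in IgG (adjusted p = 0.0585, edgeR), and Ddah2, Prmt5 and Gatm stayed below 2.1 CPM.

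**Figure D4:**
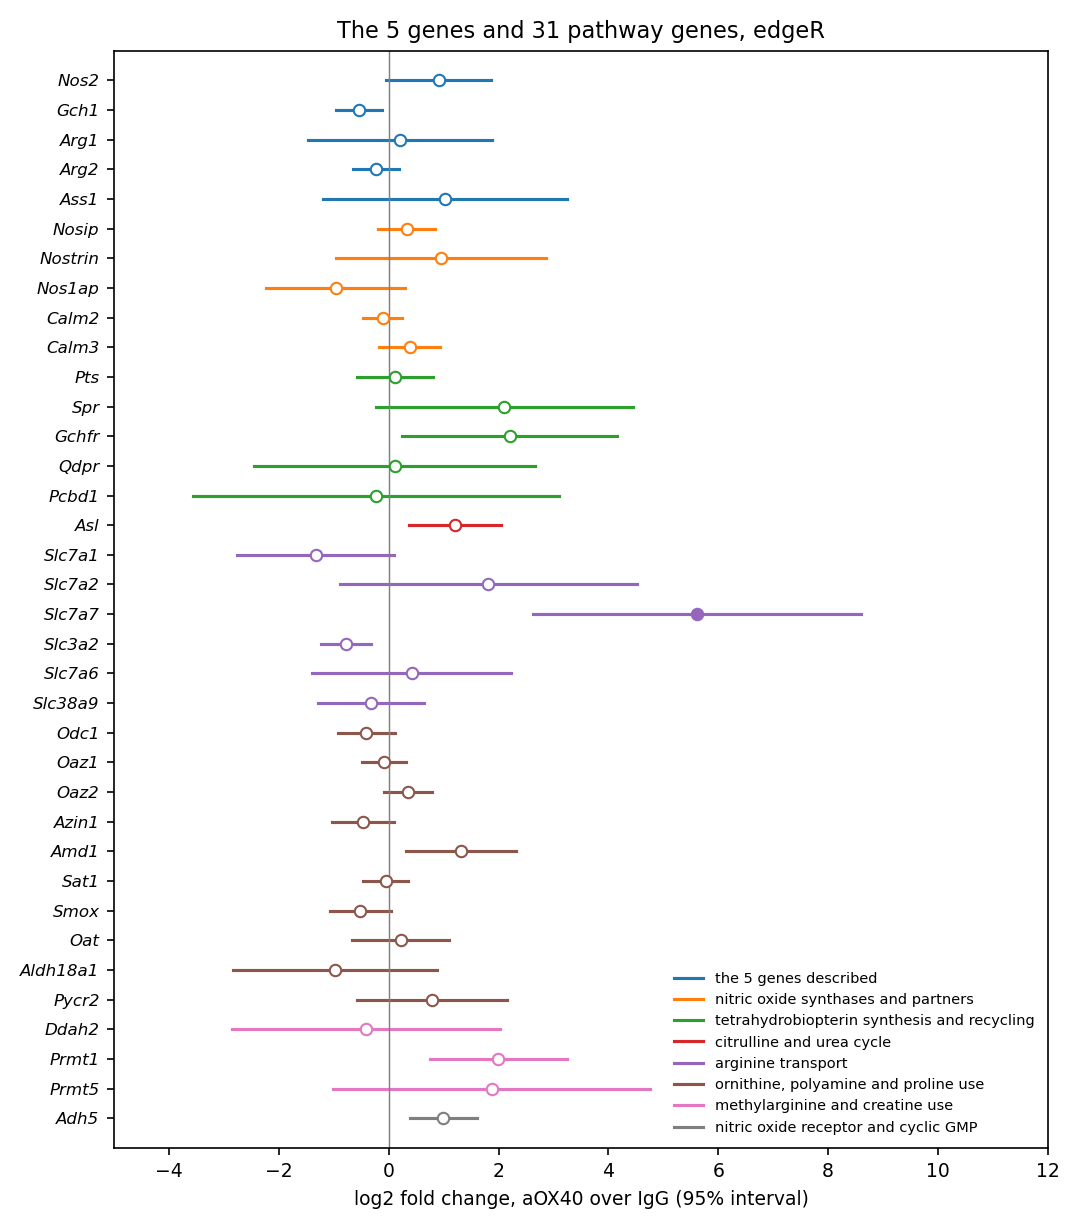
Log2 fold change of aOX40 over IgG with its 95% interval for the 5 genes and 31 of the 33 tested pathway genes, coloured by list, with a filled point where the adjusted p is below 0.05 (edgeR). Slc7a7, which had 10 counts over the 5 IgG libraries, is the only filled point. The intervals of Gch1, Gchfr, Asl, Slc3a2, Amd1, Prmt1 and Adh5 lie to one side of 0 without passing the adjusted threshold. Gchfr was at 0 in 3 of the 5 IgG libraries and passed the filter on low counts only with the aOX40 libraries.

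Across the 8 libraries the 5 genes did not follow each other closely. The correlation of log2 CPM was -0.59 between Nos2 and Gch1, -0.49 between Nos2 and each of the 2 arginase genes, and 0.72 between Arg1 and Ass1, which share the library at 0. That library, aOX40 replicate 3, also had the most Nos2 (227 CPM), so the value for Nos2 and Arg1 may rest on it. The value was not computed without that library. These correlations describe 8 libraries that also differ in depth and treatment. Among 4577 other genes (4578 for Arg1 and Ass1) with a mean of at least 10 CPM, those most like Nos2 included Rnf145 (r = 0.95) and Uhrf1bp1l (r = 0.94). Gch1 was followed most closely by Pkn2, Tut7 and Zeb1 (r = 0.94, 0.93 and 0.93), with Parvg at the other end (r = -0.96). For Arg2 these were Isca1, Ddx6 and the interferon-induced gene Gbp5 (r = 0.97, 0.95 and 0.95), and Gmfb (r = -0.93). For Arg1 they were Nras, Isca2 and Vamp5 (r = 0.99, 0.92 and 0.88), and Tut1 (r = -0.98). Without aOX40 replicate 3, the library in which Arg1 was at 0, the values for Isca2 and Vamp5 were 0.51 and 0.32 and that for Nras 0.92. For Ass1 they were Atp5pb, its listed pseudogene Atp5pb-ps and Tsn (r = 0.93, 0.91 and 0.90), and Tgfbr2 (r = -0.92).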

How the data were processed

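Values in the deposited table are estimated counts, 1 row per gene symbol, with library totals that differ. Per the submitters' processing notes, STAR 2.6.0, Subread, featureCounts 1.5.1 and the build mm10 were used; the sources used here do not give the annotation, the strand setting or the step that left fractions. Of the values, 63.4% were whole within 0.01. The genes and lists were chosen with earlier results of these data known.

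Counts were rounded, filtered with filterByExpr, scaled with TMM factors and tested with edgeR's quasi-likelihood F test in its bias-adjusted form (edgeR 4.0.16, limma 3.58.1, R 4.3.3), with Benjamini-Hochberg adjustment over 13278 genes. Standard errors came from the F statistic. DESeq2 1.42.0, limma voom, other scalings and filters, each library left out, a replicate block and the older edgeR form were alternatives. The procedure was tested on simulated data. Log2 CPM used a prior count of 2. Positions and lengths came from GENCODE M21 (GRCm38, the assembly of mm10), near copies from BLAST+ 2.17.0 and the promoter from RefSeq. Pathway genes named were those called and up to 4 of each list with the highest mean CPM; for likeness, the 3 highest and the 1 lowest Pearson correlations among tested genes with a mean of at least 10 CPM, leaving out numbered gene models. Some genes that this rule names, and a sequence, are not reported here.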

Additional observations from a re-analysis of the deposited data

Results flagged for a closer look

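In the IgG group, 54 values (CPM of the 5 genes and of pathway genes, count ratios and marker sums) were checked for a library far from the other 4, and 8 were found. For normally spread values chance gives about 1 in 20. That rate does not hold for the 5 genes listed below with the other 4 IgG libraries at 0, nor for values that share libraries. The ratio of Nos2 to Arg1 was 78.9 in IgG replicate 2, against at most 25.9 in the other IgG libraries. Arg1 was lowest and Nos2 highest in that IgG library. Several pathway genes were seen in a single IgG library and at 0 in the other 4: Nos3 (0.939 CPM), Spr (1.59 CPM) and Slc7a2 (1.26 CPM) in replicate 6, Paox (0.502 CPM) in replicate 4 and Gatm (2.05 CPM) in replicate 2. Nostrin, an adaptor of the endothelial synthase, was at 0.595 CPM in IgG replicate 2, against at most 0.167 CPM in the others. The dendritic cell markers summed to 6.11 CPM in IgG replicate 6, above the other 4 IgG libraries.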

How the results depend on the processing

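Nos2 was not called in any of 20 alternatives and stayed above 0, between 0.61 and 1.22 on the log2 scale (adjusted p = 0.0913 to 0.529). Gch1 stayed below 0 in 20 of 20 (-0.61 to -0.25) and was called in 2, DESeq2 (-0.56) and limma voom with quality weights (-0.61). Ass1 stayed above 0 in 19 of 19. The log2 fold change of Arg2 changed sign with total counts alone, at 0.0667. That of Arg1 changed sign in limma voom without and with quality weights (-2.47 and -2.46), with the replicate block (-1.15) and without aOX40 replicate 1; over libraries left out it ran from -0.71 to 0.79. The difference of the log2 ratio of Nos2 to Arg1 ran from -0.86 to 0.65 with 1 library left out. The level per length of Gch1 was 51.4 CPM per kb with the longest transcript. Calls over all genes numbered 452 with no filter, 1433 in DESeq2, 1305 in limma voom with quality weights, 320 in the older edgeR form (added after the data were seen), 0 with the replicate block (2594 at an unadjusted p below 0.05) and 0 to 589 with 1 library left out. Calls among pathway genes numbered 2 with upper quartile factors, DESeq2 and limma voom, 5 with total counts alone and with quality weights, and 0 with no filter, robust edgeR, the older edgeR form, the replicate block or any library left out. The cause was not tested. Replicate numbers 2 and 3 are the only ones that occur in both groups. The replicate block therefore compared the groups within those numbers alone, and its calls and the sign of Arg1 with it rest on those libraries. Same-numbered libraries did not deviate together (r = 0.02 and 0.05 over 13278 genes), so they were not treated as paired in the main fit. With 3 and 5 libraries, Arg1 and Ass1 had intervals over 3 log2 units wide.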
